A study of Homo sapiens and Mus musculus with 21 samples.

Results

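MHC class II high cells of the mouse thymus were 129 of the 16079 cells that passed the filters, 98 in the DHX15-KO library and 31 in the DHX15-flox library. A cell was taken when it had at least 500 detected genes, under 10% of its unique molecular identifiers (UMIs, counts of captured RNA molecules) on mitochondrial (mt-) genes, at least 5 UMIs of H2-Aa, at least 5 of Cd74, no UMI of Rag1 and under 2 UMIs of Trac. H2-Aa encodes the alpha chain of the class II molecule I-A, and Cd74 the invariant chain that escorts class II molecules. Rag1 and Trac (antigen receptor recombination and the T cell receptor alpha constant region) mark thymocytes and were used to leave them out. Cells with at least 1 UMI of Cd79a, a signalling chain of the B cell receptor, are called Cd79a-positive, and the others Cd79a-negative. These raw counts chose the cells, so their levels are given as a description.

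The DHX15-KO library came from total thymocytes of Dhx15 KO mice aged 6 weeks, and the DHX15-flox library from total thymocytes of Dhx15 fl/fl mice of the same age. Dhx15 encodes a DEAH-box RNA helicase of splicing. Thymus tissue was strained to a suspension and cells were captured in 10x Genomics droplets without a sort that the labels name. The sources used here do not give the Cre driver, the deleted exons, the cells in which the gene was deleted, or the number and sex of the mice. Over all barcodes, Xist (the X inactivation RNA) had 147447 UMIs in DHX15-KO and 88341 in DHX15-flox. The Y-linked genes Ddx3y, Eif2s3y, Kdm5d and Uty together had 6 and 4, so the RNA of both libraries was of a female pattern. With 1 library per genotype, genotype, animal and library cannot be told apart, so no comparison between the libraries has a replicate check, a test or a p-value.

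Class II molecules present peptides from engulfed material to CD4 T cells. In the thymus, B cells, dendritic cells, macrophages and epithelial cells carry them, and thymocytes that bind the presented self peptides strongly are deleted or turned into regulatory T cells. The transcriptional coactivator CIITA (Ciita) drives the class II genes, and H2-DM and H2-O control how peptides are loaded.

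The 2 matrices held 8484 DHX15-KO and 9434 DHX15-flox barcodes, of which 7261 and 8818 passed. Passing cells were deeper in DHX15-KO, with a median of 7197 UMIs and 2535 genes, against 3710 UMIs and 1778 genes in DHX15-flox. The libraries shared 17 barcodes, none of them (0) among the class II high cells. The doublet caller Scrublet marked 1 DHX15-KO cell and 0 DHX15-flox cells, too few for it to have worked, so doublets were kept. Intervals on shares are exact Clopper-Pearson 95% intervals, those on UMIs are exact Poisson 95% intervals, and both cover counting error only.

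Class II high cells were 1.35% of passing cells in DHX15-KO (1.10 to 1.64) and 0.352% in DHX15-flox (0.239 to 0.499), a ratio of 3.84. Cd79a-positive cells were 42 DHX15-KO cells, 0.578% of passing cells (0.417 to 0.781), and 12 DHX15-flox cells, 0.136% (0.0703 to 0.238). Cd79a-negative cells were 56 DHX15-KO cells, 0.771% (0.583 to 1.00), and 19 DHX15-flox cells, 0.216% (0.130 to 0.336). Both kinds thus had a higher share in DHX15-KO, by 4.25 and 3.58 times, and neither pair of intervals overlapped. The Cd79a-positive part of the class II high cells was 42.9% in DHX15-KO (32.9 to 53.3) and 38.7% in DHX15-flox (21.9 to 57.8), whose intervals overlapped. That part depended on cell quality limits: it was 25.9% in DHX15-KO and 35.7% in DHX15-flox with mt- under 5%, and 63.6% in DHX15-KO and 45.5% in DHX15-flox with at least 1000 genes. The median mt- share of the Cd79a-positive cells was 5.66% in DHX15-KO and 3.89% in DHX15-flox. A minimum in raw UMIs is easier to reach in deeper cells; with each cell thinned to 2000 UMIs the share was 0.973% in DHX15-KO and 0.302% in DHX15-flox. With Trac at 0 and at most 1 UMI over 5 T cell receptor complex genes it was 0.799% in DHX15-KO and 0.0907% in DHX15-flox.

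**Figure D1:**
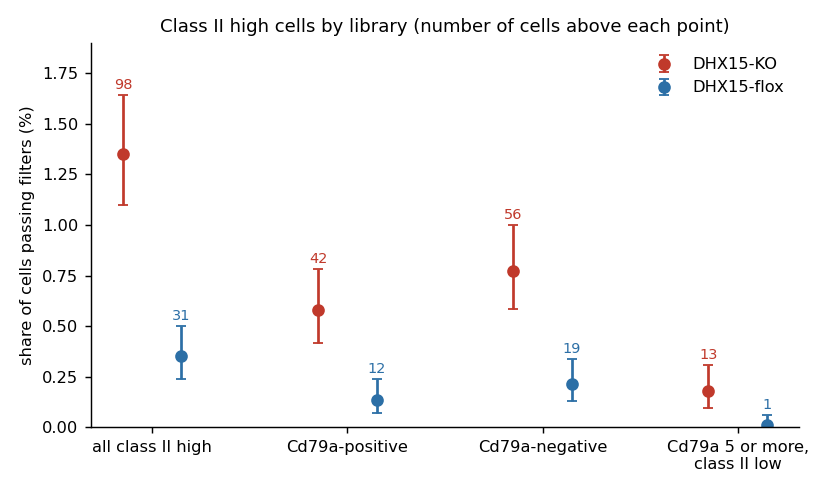
Share of passing cells (percent, y axis) in DHX15-KO and DHX15-flox for all class II high cells, their Cd79a-positive and Cd79a-negative parts, and Cd79a-rich cells with low class II counts; bars are exact 95% Clopper-Pearson intervals and the number of cells stands above each point. In all 4 pairs the DHX15-KO share lies above the DHX15-flox share, 1.35% against 0.352% for all class II high cells.

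Some cells lay near the limits of the rule. Of the class II high cells, 16 in DHX15-KO and 6 in DHX15-flox had 5 to 9 UMIs of H2-Aa, while 9 and 1 cells with 3 or 4 fell just outside. Those 16 DHX15-KO cells were shallow, with a median of 1344 UMIs, and 0 of them carried Cd79a. Of cells with enough H2-Aa and Cd74, Rag1 took out 24 in DHX15-KO and 13 in DHX15-flox, and Trac alone 0 and 1. The Cd79a split had no cells near its limit: 0 cells in either library had 1 to 4 UMIs of Cd79a.

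Cd79a split the cells into groups that differed in many other genes. Per Cd79a-positive cell, Cd79a ran from 7 to 34 UMIs (median 19.5) in DHX15-KO and from 5 to 67 (median 28) in DHX15-flox. Cst3, which encodes the cathepsin inhibitor cystatin C and is abundant in dendritic cells and macrophages, ran the other way: its median per cell was 1 UMI in the Cd79a-positive and 16 in the Cd79a-negative cells of DHX15-KO, and 2 and 25 in those of DHX15-flox. In summed UMIs scaled to counts per 1000000 UMIs (CPM), 313 of 2253 measured genes (13.9%) were at least 2-fold higher in Cd79a-positive than in Cd79a-negative cells of DHX15-KO and 652 (28.9%) at least 2-fold lower. In DHX15-flox, 83 of 1254 (6.62%) were higher and 582 (46.4%) lower. A gene counted as measured with at least 20 UMIs in 1 of the groups compared.

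**Figure D2:**
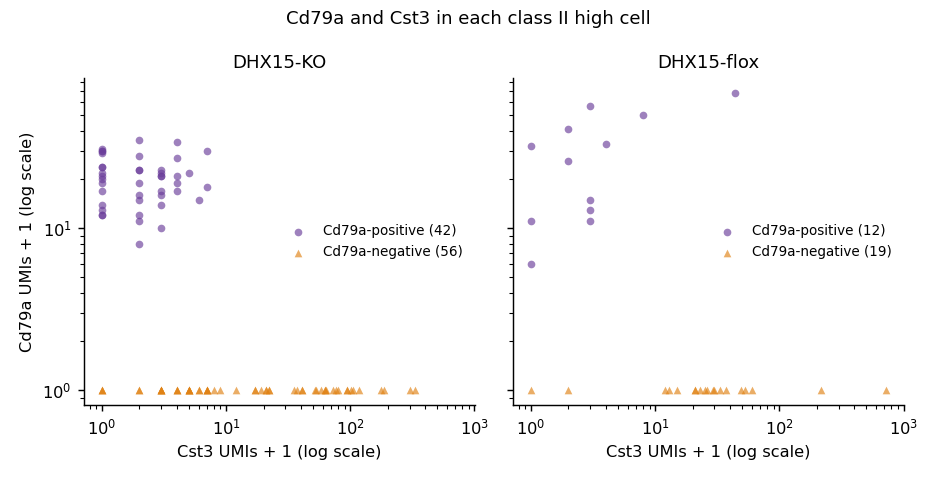
UMIs of Cst3 (x axis) and Cd79a (y axis), each plus 1 on a log scale, in every class II high cell of DHX15-KO (left) and DHX15-flox (right); circles are Cd79a-positive and triangles Cd79a-negative cells. No cell has 1 to 4 UMIs of Cd79a, and most cells high in Cst3 have none of it.

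B cell genes led the Cd79a-positive side in both libraries. Cd79b, the partner chain of Cd79a, had 427 UMIs in the Cd79a-positive and 10 in the Cd79a-negative cells of DHX15-KO (54.5-fold higher), and 126 and 7 in those of DHX15-flox (22.4-fold higher). Ms4a1 (the surface protein CD20) had 306 UMIs in Cd79a-positive and 0 in Cd79a-negative cells of DHX15-KO, and 111 and 0 in those of DHX15-flox. The B cell transcription factor Ebf1 (340 and 65 UMIs), the scaffold Bank1 (124 and 38), the IgM receptor Fcmr (175 and 26) and the IgE receptor Fcer2a (62 and 35) likewise had DHX15-KO and DHX15-flox UMIs in Cd79a-positive cells and 0 in Cd79a-negative cells of either library.

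These genes were seen in a larger share of the DHX15-KO cells. Cd79b was seen in 42 of 42 DHX15-KO and 11 of 12 DHX15-flox Cd79a-positive cells, Ms4a1 in 41 and 9, Ebf1 in 41 and 8, and Pax5 (the factor that fixes B cell identity) in 36 and 5. Flt3, a receptor of early progenitors and dendritic cells, was seen in 0 DHX15-KO and 5 DHX15-flox Cd79a-positive cells, and Fscn1, an actin-bundling protein of mature dendritic cells, in 0 and 3. A cell type name for the DHX15-flox cells without Ms4a1, Ebf1 or Pax5 therefore rests on fewer B cell genes.

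Kappa light chain RNA (Igkc) was found in 40 of 42 DHX15-KO and 12 of 12 DHX15-flox Cd79a-positive cells, and the 2 DHX15-KO cells without it carried lambda chain RNA (Iglc2), up to 101 UMIs in 1 cell. Reads of Igkc, Iglc2 and the heavy chain genes can be split among similar gene segments, so their levels are uncertain.

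One DHX15-flox cell stood far from the rest. It held 57812 UMIs, 43.3% of all UMIs of the 12 cells, and 41.5% of its UMIs were Igkc. Its 23962 Igkc UMIs were 96.0% of the group's, and it also carried 17562 UMIs of Ighg2b (the IgG2b heavy chain), 1842 of Jchain (the joining chain of secreted antibody) and 168 of Prg2, with 0 of Ighm. Jchain and immunoglobulin RNA at such levels are known from antibody-secreting cells, while H2-Aa (20 UMIs), Cd74 (309) and Cd79a (67) put it within the rule. Summed levels of the Cd79a-positive cells are therefore given with and without it, a setting chosen after its values were seen.

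Heavy chain genes differed between the Cd79a-positive cells of the libraries. Ighd, the IgD heavy chain that naive B cells carry beside IgM, was seen in 40 of 42 DHX15-KO cells (95.2%, 83.8 to 99.4) and 5 of 12 DHX15-flox cells (41.7%, 15.2 to 72.3). Thinned to 2000 UMIs, it was seen in 35 of 42 DHX15-KO (83.3%) and 5 of 11 DHX15-flox cells (45.5%). Thymocytes with Rag1 RNA, which should lack it, showed Ighd in 3.89% of DHX15-KO and 0.757% of DHX15-flox cells, at medians of 6855 and 3500 UMIs.

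Summed over cells, Ighd had 1222 CPM in DHX15-KO and 307 in DHX15-flox (541 without the Igkc-rich cell), and Ighm had 3967 in DHX15-KO and 1183 in DHX15-flox (2086 without that cell). Ighm UMIs were also present in 75.9% of DHX15-KO and 68.1% of DHX15-flox cells with Rag1 RNA, so its presence in a cell says little. Class-switched heavy chain genes at 10 or more UMIs were found in 0 of 42 DHX15-KO cells, which allows a share of up to 7.14% by 3 cells of the total (8.41% by Clopper-Pearson), and in 3 of 12 DHX15-flox cells (25%, 5.49 to 57.2). The 3 were the Igkc-rich cell, a cell with 82 UMIs of Igha (the IgA heavy chain) and 0 of Ighm, and a cell with 31 UMIs of Ighg2b and 11 of Ighm. Among cells with Rag1 RNA the same limit was passed by 0 of 5445 in DHX15-KO and 1 of 6999 in DHX15-flox.

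**Figure D3:**
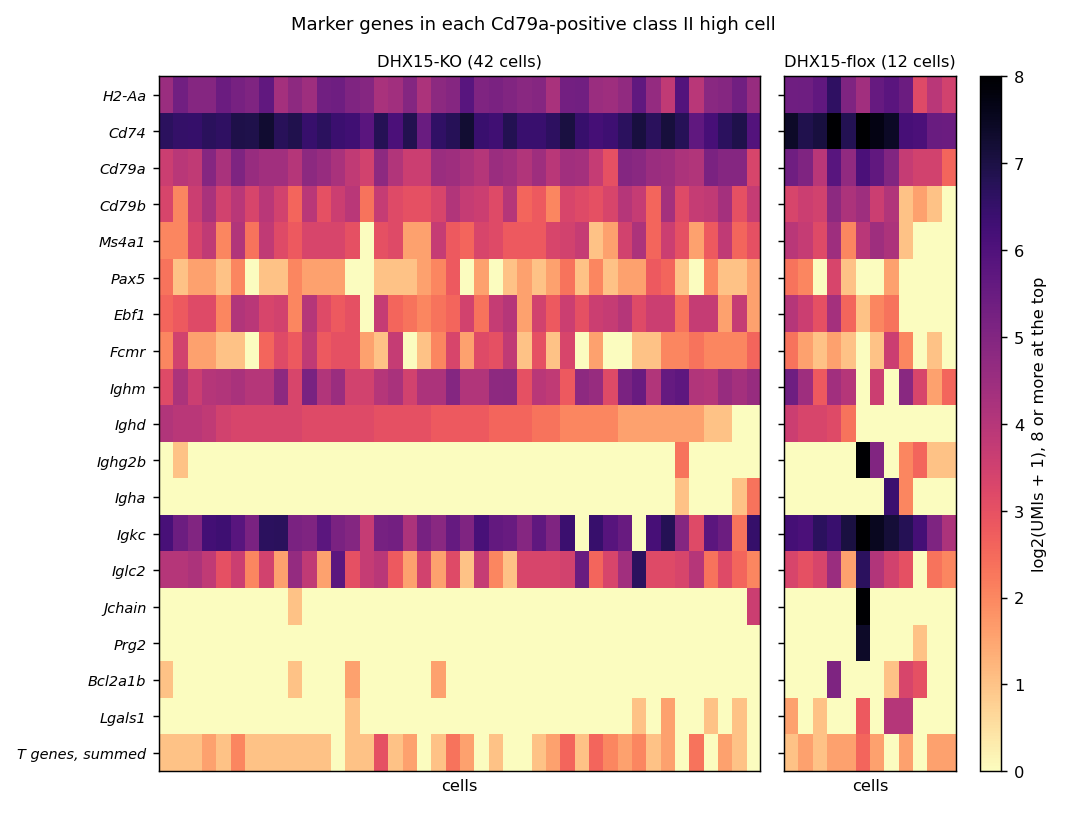
UMIs per Cd79a-positive cell, as log2(UMIs + 1), of class II, B cell and antibody genes, for 42 DHX15-KO (left) and 12 DHX15-flox cells (right), in columns ordered by Ighd; the bottom row sums 5 T cell receptor complex genes. Ighd fills 40 of 42 DHX15-KO columns and 5 of 12 DHX15-flox columns, and the Igkc-rich DHX15-flox cell is the dark column at Ighg2b, Igkc, Jchain and Prg2.

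Beyond the rule lay Cd79a-rich cells with little class II RNA. Cells with at least 5 UMIs of Cd79a numbered 60 in DHX15-KO (0.826%, 0.631 to 1.06) and 20 in DHX15-flox (0.227%, 0.139 to 0.350). Of these, 13 in DHX15-KO (0.179%, 0.0954 to 0.306) and 1 in DHX15-flox (0.0113%, 0.000287 to 0.0632) had under 5 UMIs of H2-Aa or Cd74. The genes given for them here were chosen after their values were seen. The 13 DHX15-KO cells had 307 UMIs of Vpreb3, in 13 of 13 cells, against 49 in 20 of 42 class II high Cd79a-positive cells; Vpreb3 binds nascent immunoglobulin chains and is known from B cell precursors. They carried Rag1 in 11 cells, Il7r (the interleukin 7 receptor of lymphoid precursors) in 9, Ighm in 13, and Ebf1 in 13. T cell genes were found in some of the same 13 cells, with 32 UMIs of Cd8b1 in 5, 28 of Lck in 5, 26 of Cd3d in 4 and 24 of Cd3e in 4, against 1, 10, 4 and 1 UMIs in the 42 class II high Cd79a-positive cells. Doublets with thymocytes were not removed, and their part in these values was not tested. Fcer2a and Cr2, genes of mature B cells, had 0 UMIs, and Ighd had 5 UMIs in 4 cells. The rule also held the class II high cells at no Rag1 and under 2 UMIs of Trac, so the contrasts in Rag1 and T cell genes are a description. In DHX15-KO, 5 more cells had at least 5 UMIs of Cd79a, H2-Aa and Cd74 but were left out for Rag1. They held 14 UMIs of Cd8b1 in 2 cells and 11 of Lck in 4. Genes outside the rule in which the 13 cells differed from the class II high ones included Vpreb3, Il7r, Fcer2a, Cr2, Ighd and Ms4a1. Ms4a1 was seen in 2 of the 13 cells and in 41 of the 42 class II high Cd79a-positive cells.

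The Cd79a-negative cells were led by genes of dendritic cells and macrophages in both libraries. Cst3 had 2456 UMIs in Cd79a-negative and 62 in Cd79a-positive cells of DHX15-KO, and 1370 and 63 in those of DHX15-flox, 31.0-fold and 17.5-fold higher. Tyrobp, a signalling adaptor of myeloid and natural killer cells, had 597 and 11 UMIs in DHX15-KO (42.5-fold higher) and 314 and 1 in DHX15-flox. Lysozyme (Lyz2) had 333 and 0 in DHX15-KO and 471 and 1 in DHX15-flox. Siglech, a receptor of plasmacytoid dendritic cells, had 274 and 2 in DHX15-KO and 63 and 0 in DHX15-flox. Per cell, Cst3 ran from 0 to 329 UMIs (seen in 53 of 56) in DHX15-KO and from 0 to 722 (18 of 19) in DHX15-flox.

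The Cd79a-negative cells were shallow and uneven. A DHX15-KO cell held 830 to 23429 UMIs (median 2271) and a DHX15-flox cell 951 to 31396 (median 3363), and the largest cell held 8.87% of the summed UMIs in DHX15-KO and 18.9% in DHX15-flox. Summed levels therefore weigh the deep cells of each library most. A few marker genes sorted many of them. Of 6 marker limits, 32 of 56 cells in DHX15-KO and 12 of 19 in DHX15-flox passed 1, 8 and 3 passed more than 1, and 16 and 4 passed none. The limits were at least 2 UMIs of C1qa, at least 2 of Siglech, Ccr7 with Fscn1, Xcr1 or Clec9a, Sirpa with Cd209a, Clec10a, Mgl2 or Itgam, and at least 2 UMIs of Epcam. Of the cells that passed none, 11 of 16 in DHX15-KO and 3 of 4 in DHX15-flox had at least 10 UMIs of Cst3.

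C1qa (complement C1q, made by macrophages) reached 2 UMIs in 18 of 56 DHX15-KO cells (32.1%, 20.3 to 46.0) and 3 of 19 DHX15-flox cells (15.8%, 3.38 to 39.6). The same limit was reached by 0.496% of DHX15-KO and 0.129% of DHX15-flox cells with Rag1 RNA. After thinning to 2000 UMIs, with shallower cells left out, it was 4 of 30 DHX15-KO and 2 of 12 DHX15-flox cells, so the order of the shares did not hold. The 18 DHX15-KO cells were small, with 830 to 15726 UMIs (median 1239). They carried C1qb (184 UMIs), C1qc (180), the lipid carrier Apoe (707) and Lyz2 (230 UMIs, in 18 of 18), with 0 UMIs of Flt3. C1q, Apoe and Lyz2 RNA thus lay together in these 18 DHX15-KO cells, which C1qa chose. The 3 DHX15-flox cells held 67 Lyz2 UMIs in 2 cells, against 404 in the other Cd79a-negative cells of that library.

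Siglech reached 2 UMIs in 7 of 56 DHX15-KO cells (12.5%, 5.18 to 24.1) and 2 of 19 DHX15-flox cells (10.5%, 1.30 to 33.1), against 0.0184% and 0.0143% of cells with Rag1 RNA. The 7 DHX15-KO cells were deep, from 7933 to 14135 UMIs. They shared 274 UMIs of Siglech, 212 of Tcf4 (the transcription factor of plasmacytoid dendritic cells), 293 of Bst2, 245 of Irf8, 74 of the chemokine receptor Ccr9 and 150 of Klk1, and had 0 UMIs of C1qa, Lyz2, Ccr7 and Fscn1. Flt3 and Ighm were seen in all 7 of them. They are named plasmacytoid-like by these markers.

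Ccr7, the receptor that guides mature dendritic cells, was found together with Fscn1 in 10 of 56 DHX15-KO cells (17.9%, 8.91 to 30.4) and 2 of 19 DHX15-flox cells (10.5%, 1.30 to 33.1), against 0.0918% and 0.0429% of cells with Rag1 RNA. The 10 DHX15-KO cells held 106 UMIs of Fscn1, 47 of Ccr7, 43 of Apol7c, and the chemokines Ccl5 (210 UMIs in 7 cells), Ccl17 (27) and Ccl22 (21). The 2 DHX15-flox cells held 55 UMIs of Fscn1 and 21 of Ccl22 with 0 of Ccl5.

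Xcr1 or Clec9a, receptors of type 1 conventional dendritic cells, were found in 5 of 56 DHX15-KO cells (8.93%, 2.96 to 19.6) and 6 of 19 DHX15-flox cells (31.6%, 12.6 to 56.6). Of those 5 DHX15-KO cells, 3 also carried Siglech and Tcf4, so the cells are called by their genes. Sirpa with Cd209a, Clec10a, Mgl2 or Itgam, genes of type 2 conventional dendritic cells, was found in 4 DHX15-KO (7.14%, 1.98 to 17.3) and 5 DHX15-flox cells (26.3%, 9.15 to 51.2). After thinning to 2000 UMIs, the Xcr1 or Clec9a limit was passed by 1 of 30 DHX15-KO and 3 of 12 DHX15-flox cells, and the Sirpa limit by 1 of 30 and 0 of 12, so the order of the shares did not hold for the Sirpa limit. The 5 DHX15-flox cells were deep (13084 to 31396 UMIs), and held 181 UMIs of Cd209d and 105 of Mgl2 beside 201 of Tcf4, 81 of Ly6c2 and 63 of Siglech. The median over the 19 cells was 3363, so these 5 gave a large part of the 166060 summed UMIs. Summed levels of DHX15-flox Cd79a-negative cells, and ratios to them, therefore lean on these 5 cells. Markers of conventional and of plasmacytoid dendritic cells were thus mixed in these cells, and they too are called by their genes.

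Genes of other cell types were also found. A B cell gene other than Cd79a was seen in 12.5% of DHX15-KO and 10.5% of DHX15-flox Cd79a-negative cells, and in 27.0% of DHX15-KO and 16.5% of DHX15-flox cells with Rag1 RNA, which were deeper. Thinned to 2000 UMIs it was seen in 0 of 30 DHX15-KO and 2 of 12 DHX15-flox Cd79a-negative cells, and in 9.21% and 8.78% of cells with Rag1 RNA. Of the epithelial keratins, Krt5 had 52 UMIs in DHX15-KO, 98.1% of them in 1 cell, and Krt8 had 43 UMIs in 5 DHX15-KO cells and 3 UMIs in 3 DHX15-flox cells. The list for natural killer and innate lymphoid cells summed to 3692 CPM in DHX15-KO and 3131 in DHX15-flox Cd79a-negative cells, against 854 and 283 in other passing cells. Most of it was Tyrobp (597 UMIs in DHX15-KO and 314 in DHX15-flox) and the Fc receptor chain Fcer1g (227 and 169), which myeloid cells share, while the defining receptors Klrb1c and Ncr1 had 0 and 1 UMIs in DHX15-KO and 0 of either in DHX15-flox. Of its 7 measured genes, 4 were at least 2-fold higher in DHX15-KO and 0 lower, at a median log2 ratio of 1.62. Of all measured genes 12.9% were higher and 4.74% lower, at a median of 0.08. The 4 were the granule proteins Nkg7 (20 UMIs in 2 DHX15-KO cells, 0 in DHX15-flox) and Gzma (38 in 7, against 0), the chemokine Xcl1 (27 in 1, against 0) and the receptor chain Klrd1 (39 in 8, against 8 in 3). All 4 reached the minimum of 20 UMIs in DHX15-KO only, so the minimum favoured that direction. A list of 13 T cell genes summed to 1075 CPM in DHX15-KO and 524 in DHX15-flox Cd79a-negative cells, and to 672 and 374 in Cd79a-positive cells. All other passing cells had 13346 and 18978. The list includes Trac, and the rule left out cells by Rag1 and Trac, so these low sums are a description. Over Cd3d, Cd3e, Cd3g, Trbc1 and Trbc2, 1 DHX15-KO cell with C1qa held 113 UMIs. Of the 13, 0 were at 0 in DHX15-KO and 3 in DHX15-flox Cd79a-negative cells, and 1 and 4 in Cd79a-positive cells; Cd3e had 11 and 0 UMIs in Cd79a-negative cells. Erythroid genes had 0 UMIs.

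**Figure D4:**
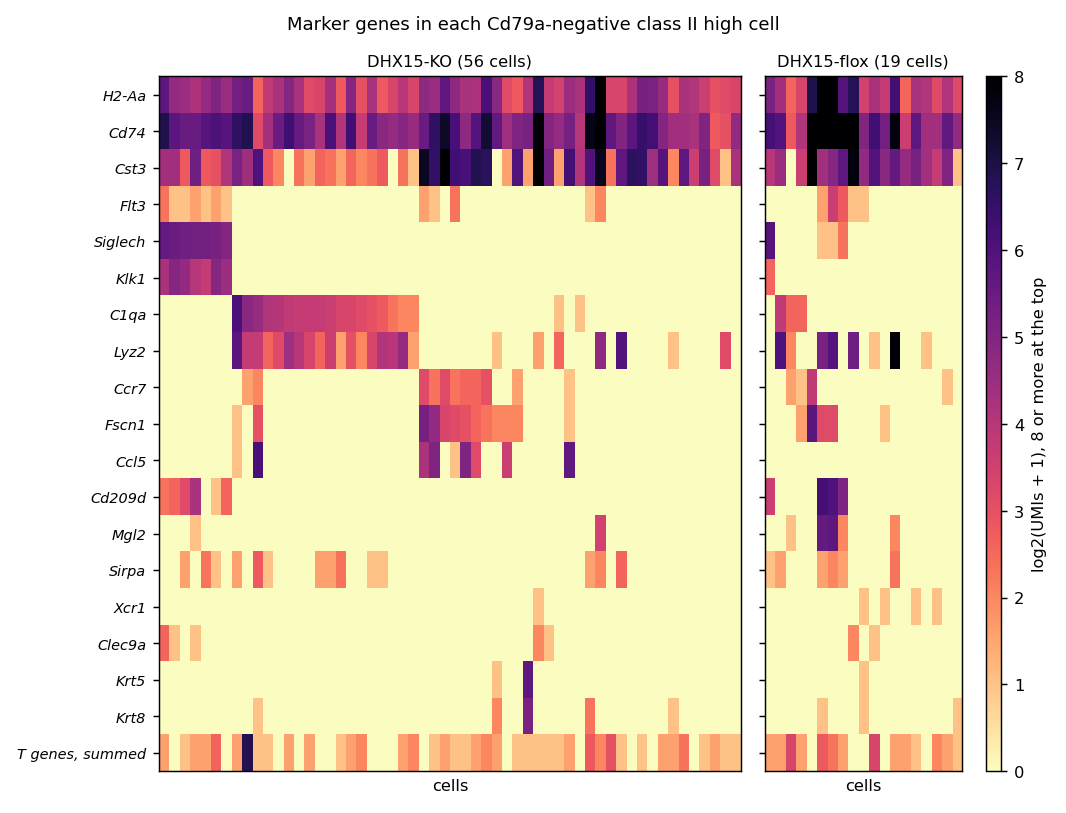
UMIs per Cd79a-negative cell, as log2(UMIs + 1), of marker genes for 56 DHX15-KO (left) and 19 DHX15-flox cells (right), in columns grouped by the highest of Siglech, C1qa, Fscn1, Cd209d, Krt5 and Clec9a; the bottom row sums 5 T cell receptor complex genes. Siglech and Klk1, C1qa and Lyz2, and Ccr7, Fscn1 and Ccl5 each fill a block of DHX15-KO cells.

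Cells with these markers also lay outside the rule. C1qa at 2 or more UMIs occurred in 113 DHX15-KO and 31 DHX15-flox passing cells, of which the rule took 18 and 3. Ccr7 with Fscn1 occurred in 18 and 10. Siglech at 2 or more occurred in 9 and 3, and the rule took most of these Siglech cells. Of 62 DHX15-KO and 16 DHX15-flox cells with at least 5 UMIs of Lyz2, 19 and 5 were class II high and Cd79a-negative, and 15 and 1 of those also had C1qa.

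The targeted gene was scarce in these cells. Dhx15 had 42 UMIs in the class II high cells of DHX15-KO and 34 in those of DHX15-flox, a log2 ratio of −0.35 (interval −1.04 to 0.35) on the CPM scale. Every log2 ratio between the libraries is DHX15-KO over DHX15-flox. The Cd79a-positive cells had 23 and 13 Dhx15 UMIs (0.19, −0.85 to 1.30), and the Cd79a-negative cells 19 and 21 (−0.81, −1.79 to 0.15). All 3 intervals hold 0, so a loss of Dhx15 RNA in the class II high cells was not detectable at this depth. The other passing cells had 100 CPM of Dhx15 in DHX15-KO and 181 in DHX15-flox. UMIs outside the deleted part would not show a deletion.

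Over all class II high cells, 492 of 3368 measured genes (14.6%) were at least 2-fold higher in DHX15-KO and 97 (2.88%) lower, at a median log2 ratio of 0.26. Of the 10 class II chain and chaperone genes listed, all measured, 0 were higher and 1 lower (H2-DMb1), at a median of −0.06. The list includes H2-Aa and Cd74, which chose the cells, so its counts and medians are a description in every subset. The subsets differed, so they are given apart.

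Class II genes in the Cd79a-positive cells were near one another in the libraries once the Igkc-rich cell was left out. H2-Aa and Cd74 chose the cells in both libraries, so their values here are a description. H2-Aa had 6185 CPM in DHX15-KO and 3399 in DHX15-flox (5730 without that cell), a log2 ratio of 0.86 with the cell and 0.11 without it (−0.05 to 0.27). H2-Ab1, the I-A beta chain, had 4904 and 3175 (5175 without the cell), a log2 ratio of 0.63 with and −0.08 without it. Cd74 had 19758 and 12796 (18484), a log2 ratio of 0.63 with and 0.10 without it. The cell's antibody RNA enlarged the DHX15-flox total by which each gene was divided. Of 9 measured class II chain and chaperone genes of a list of 10, 1 was at least 2-fold higher in DHX15-KO (H2-DMb2, 879 and 367 CPM) and 0 lower, at a median log2 ratio of 0.63, beside 29.5% of 1352 measured genes higher, 2.66% lower and a median of 0.67. Without the cell, 0 were higher and 0 lower at a median of −0.01, beside 11.3% of 1331 genes higher, 2.55% lower and a median of 0.10.

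Ciita was seen in 21 of 42 DHX15-KO Cd79a-positive cells (36 UMIs) and 2 of 12 DHX15-flox cells (5 UMIs), a log2 ratio of 2.22 (0.86 to 3.92) with the Igkc-rich cell and an interval of 0.04 to 3.11 without it. In the Cd79a-negative cells it had 7 and 19 UMIs, below the minimum of 20.

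In the Cd79a-negative cells the summed class II levels were lower in DHX15-KO for the genes given here; H2-Aa and Cd74 chose the cells, so theirs are a description. H2-Aa had 6028 CPM in DHX15-KO and 8099 in DHX15-flox (log2 ratio −0.43), H2-Ab1 4627 and 7467 (−0.69), H2-Eb1 (the I-E beta chain) 4354 and 7527 (−0.79) and Cd74 13585 and 22046 (−0.70). H2-DMb1, a chain of the peptide loader, had 288 and 662 (−1.20, −1.64 to −0.77). Of 8 measured genes of the list, 0 were at least 2-fold higher and 2 lower (H2-DMb1 and H2-DMb2), at a median of −0.69, beside 12.9% of 2027 measured genes higher, 4.74% lower and a median of 0.08. Averaged over cells, so that each counted alike, the list had 0 higher and 2 lower at a median of −0.21. With Trac at 0 and at most 1 UMI of the 5 T cell receptor complex genes, called the T cell limit here, 0 of 6 measured genes were higher and 0 lower, at a median of −0.27 beside −0.59 for all genes, so both calls were lost. Single cells weighed on the sum: 1 DHX15-flox cell held 34.4% of that library's H2-Aa UMIs, and the median per cell was 18 H2-Aa UMIs in both libraries, with ranges of 5 to 339 in DHX15-KO and 5 to 463 in DHX15-flox. Levels also differed between kinds of cell. In DHX15-KO, H2-Aa had 2660 CPM in the cells with Siglech, 6732 in those with C1qa and 7190 in those with Ccr7 and Fscn1.

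**Figure D5:**
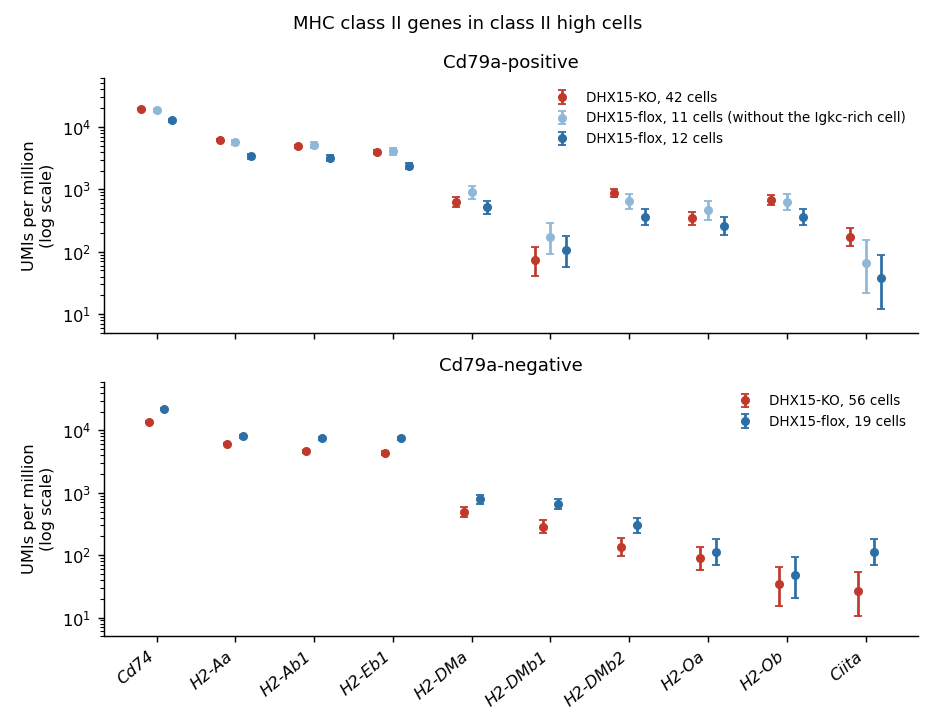
CPM (UMIs per 1000000, log scale) of 10 class II pathway genes in Cd79a-positive (top) and Cd79a-negative cells (bottom) of DHX15-KO and DHX15-flox; bars are exact 95% Poisson intervals, and pale points are DHX15-flox without the Igkc-rich cell. Cd79a-positive H2-Aa is 6185 in DHX15-KO and 3399 (5730 without that cell) in DHX15-flox; Cd79a-negative H2-Aa is 6028 in DHX15-KO and 8099 in DHX15-flox.

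Across all genes of the Cd79a-positive cells, 399 of 1352 were at least 2-fold higher in DHX15-KO and 36 lower, and leaving out the Igkc-rich cell gave 151 higher and 34 lower of 1331. Scaling without mt-, ribosomal protein, immunoglobulin and T cell receptor genes gave 173 higher and 62 lower, and edgeR's TMM scaling 186 and 57, so the split between directions leaned on the scaling. The median of all measured genes was 0.67 with all UMIs as the total, 0.23 and 0.29 with these scalings, and 0.10 without that cell. It also leaned on the minimum, at 0.11 with at least 3 UMIs and 0.65 with at least 50. Of the 22 genes of the B cell list, all measured, 13 were higher and 1 lower (Igkc) at a median of 1.08 with the Igkc-rich cell (6 and 1 with the first of these scalings, 7 and 1 with TMM), and 3 higher (Ighd, Fcmr and Spib) and 0 lower at a median of 0.39 without it. Spib, a transcription factor of B and plasmacytoid cells, had 67 UMIs in DHX15-KO and 8 in DHX15-flox (1.62 without the cell, 0.56 to 2.89).

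The genes highest in DHX15-KO Cd79a-positive cells had varied roles. Tsc22d3 (GILZ, a glucocorticoid-induced regulator) had 135 UMIs in 38 of 42 DHX15-KO cells and 10 in 6 of 12 DHX15-flox cells, a log2 ratio of 3.12 (2.20 to 4.22) with and 2.31 (1.38 to 3.40) without the Igkc-rich cell. Zfp36l2, an RNA-decay factor, had 110 UMIs in DHX15-KO and 9 in DHX15-flox (2.98 with, 2.16 without). Bach2, a repressor that holds back plasma cell formation, had 48 and 5 (2.63 with, 1.81 without). Lmo2, a transcription cofactor of blood progenitors, had 55 and 3 (3.57, 1.94 to 5.89, with the cell), the kinase Lyn 63 and 7 (2.54 with, 1.72 without), the phosphatase Acp5 47 and 5 (2.60 with, 1.78 without), the stress gene Ddit4 40 and 3 (3.11, 1.45 to 5.44, with it), and Vpreb3 49 and 2.

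The genes lowest in DHX15-KO Cd79a-positive cells came largely from the Igkc-rich cell: it alone gave 1842 of the Jchain UMIs (12 in DHX15-KO cells), and Ssr4 and Hsp90b1, of the secretory pathway, had log2 ratios of −3.26 and −2.78 with it and −0.77 and −0.32 without it. Others did not. Bcl2a1b, a survival gene of the Bcl2 family, had 6 UMIs in 4 DHX15-KO cells and 50 in 4 DHX15-flox cells (−3.69 with, −4.51 without), though 1 DHX15-flox cell held 66% of them; reads of Bcl2a1b and its near copy Bcl2a1d (2 and 20 UMIs) may be split between them. Lgals1 had 6 and 39 (−3.33 with, −3.91 without). Without the Igkc-rich cell the interferon-responsive genes Ly6a (145 and 137 UMIs, −1.37) and Ifi27l2a (225 and 176, −1.10) were also over 2-fold lower in DHX15-KO, and they were not with it (−0.95 and −0.33). Of the 6 measured genes of the interferon list they were the 2 lower, Ifit3 (21 and 2 UMIs, 1.36) was the 1 higher, and the median was −0.59; with the cell 1 was higher and 0 lower, at a median of 0.02.

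In the Cd79a-negative cells, 261 of 2027 measured genes were at least 2-fold higher in DHX15-KO and 96 lower, the shares given above with the class II list. This lean to higher values did not hold within the T cell limit, which left 32 DHX15-KO and 4 DHX15-flox cells and gave 41 higher and 191 lower genes of 781, at a median of −0.59. For genes this limit was added after the data were seen. The minimum of 20 UMIs also bears on the lean, since the larger DHX15-KO total (264119 against 166060 UMIs) lets more genes enter through DHX15-KO. The median over all genes was −0.19 with a minimum of 3 UMIs, where more counts lie near the floor of 3, and 0.07 with a minimum of 50. Macrophage genes stood on the higher side: 6 of 7 measured genes of a list of 13 were at least 2-fold higher and 0 lower, at a median of 2.76. The count was 6 and 0 (median 2.05) as a mean over cells, and 2 higher and 1 lower (median 0.89) within the T cell limit. With a minimum of 3 UMIs all 13 were measured, with 7 higher and 1 lower at a median of 1.19. C1qa had 259 UMIs in 20 of 56 DHX15-KO cells and 23 in 3 of 19 DHX15-flox cells (2.82, 2.21 to 3.51), Apoe 740 and 64 (2.86, 2.49 to 3.25), and the adhesion gene Vcam1 56 and 6 (2.55, 1.34 to 4.06). Ms4a7 had 53 and 0 UMIs, at least 11.1-fold higher against a floor of 3 UMIs in the library. A list for class II antigen processing, mostly lysosomal enzymes but also the inhibitor gene Cst3, went with them in part. Of 9 measured, 4 were higher (Ctsb, Ctsd, Ctsl and Lgmn) and 0 lower, at a median of 0.31. The count was 2 and 0 (median 0.85) as a mean over cells, and 4 and 0 (median 1.00) within the T cell limit. Ctsd had 156 and 23 UMIs (2.09, 1.46 to 2.79), and Ctss, the main enzyme for the invariant chain in B and dendritic cells, had 298 and 182 (0.04, −0.23 to 0.32).

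Genes of plasmacytoid cells were higher for 4 of 10 measured list members and lower for 0, at a median of 0.75 (2 and 0 as a mean over cells, 2 and 0 of 8 within the T cell limit). Siglech had 274 UMIs in 7 DHX15-KO cells and 63 in 4 DHX15-flox cells (1.45, 1.05 to 1.87), and Klk1 150 in 7 and 5 in 1 (4.24, 2.98 to 5.88). Of 10 measured genes of the list for Ccr7-positive dendritic cells, 4 were higher and 0 lower at a median of 0.72 (3 and 2 as a mean over cells). Within the T cell limit 1 of 9 was higher and 0 lower, at a median of −0.22, so the sign of the median turned. Ccl5 had 222 UMIs in 9 DHX15-KO cells and 0 in DHX15-flox (at least 46.5-fold higher), while Fscn1 had 113 and 72 (−0.02, −0.46 to 0.43). Among 11 measured interferon-responsive genes 6 were higher and 0 lower, at a median of 1.01 (3 and 0 as a mean over cells, 1 and 1 of 6 within the T cell limit), with Irf7 at 86 and 13 UMIs (2.06, 1.21 to 3.02).

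Genes of type 2 conventional dendritic cells stood on the lower side. Of 5 measured, 4 were at least 2-fold lower and 0 higher, at a median of −2.42. As a mean over cells 4 were lower and 1 higher, at a median of −2.33. With a minimum of 3 UMIs, 5 of 10 were lower and 1 higher, at a median of −1.40. Mgl2, a lectin, had 11 UMIs in 2 DHX15-KO cells and 106 in 5 DHX15-flox cells (−3.94, −4.98 to −3.04), Cd209a 17 and 57 (−2.42, −3.29 to −1.61), Clec10a 24 and 73 (−2.27), and Cd209d 41 and 181 (−2.81). These DHX15-flox UMIs lay in 3 to 5 cells, and a pair of cells carried much of them: 1 held 47 of the Mgl2 and 74 of the Cd209d UMIs, and the other 52 and 64. In DHX15-KO all 41 Cd209d UMIs lay in the cells with Siglech, so there it went with plasmacytoid-like cells. Within the T cell limit 1 gene of the list was left measured, at −0.95. Naaa, of the type 1 list, had 34 and 55 (−1.36), the 1 of its 4 measured genes past 2-fold. The 5 measured genes shared by conventional dendritic cells had 0 higher and 0 lower (median 0.17), and the 10 of class I presentation likewise 0 and 0 (median 0.31).

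Several of the highest genes rested on 1 cell. In DHX15-KO, 1 cell held 98.1% of Krt5 (52 UMIs, against 1 in DHX15-flox), 75.8% of Wfdc18 (132, against 0), 60.6% of Hist1h2ap (71, against 4) and 67.2% of the T cell gene Trbc1 (64, against 13). In DHX15-flox, 1 cell held 94.7% of the 38 Apod UMIs (0 in DHX15-KO) and 57.1% of Lyz2 (333 UMIs in DHX15-KO and 471 in DHX15-flox, −1.17). Pld3, a lysosomal nuclease, was more widely spread, with 47 UMIs in 18 of 56 DHX15-KO cells against 1 in DHX15-flox.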

How the data were processed

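Single cells of 2 mouse thymus libraries were analysed; the human cell line samples of the series were not used here. The deposited matrices hold whole UMI counts per gene and barcode, made with Cell Ranger 6.0.1, per the file headers. The submitters' processing notes list Cell Ranger 6.0.2, Scanpy 1.7.1 and the build mm10, with no role given, and no source used here states a strand setting. Of 28692 genes, 67 rows with a repeated symbol were left out.

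Cells, marker limits and 29 gene lists were chosen with earlier results of these data known. Groups follow the labels' treatment entry. UMIs were summed per subset and library and scaled to CPM; with 1 library per genotype no test was run. A gene was measured with at least 20 UMIs in 1 library and counted past 2-fold, with counts under 3 set to 3. Named genes were the 4 markers, the class II list, Dhx15, up to 4 genes per list, the 12 leading genes of each subset, and the 10 highest and 10 lowest per contrast, without mt-, ribosomal protein, antigen receptor and Gm or Rik genes; other genes named were chosen after their values were seen, and some genes are not reported here. Thinned values used 2000 UMIs per cell. Python 3.11.15, numpy 2.4.6, scipy 1.17.1, pandas 2.3.3, scanpy 1.11.5 (Scrublet), R 4.3.3 and edgeR 4.0.16 (TMM factors) were used, and scripts were tested on simulated data. Summed UMIs were 206953 and 133555 in Cd79a-positive cells of DHX15-KO and DHX15-flox, and 264119 and 166060 in Cd79a-negative cells.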

Additional observations from a re-analysis of the deposited data

Results flagged for a closer look

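In all, 4 genes were past 2-fold in opposite directions in the Cd79a-positive and the Cd79a-negative cells. H2-DMb2, a chain of the class II peptide loader, had a log2 ratio of DHX15-KO over DHX15-flox of 1.26 in Cd79a-positive and −1.14 in Cd79a-negative cells. Igkc had −4.29 and 2.88, Mzb1 (an endoplasmic reticulum protein of antibody-secreting and plasmacytoid cells) −2.16 and 1.14, and Bcl2a1d −3.37 and 1.17. These differences between subsets were not tested. Without the Igkc-rich DHX15-flox cell the Cd79a-positive values were 0.44 for H2-DMb2, −0.48 for Igkc, −0.69 for Mzb1 and −4.19 for Bcl2a1d, so only Bcl2a1d stayed past 2-fold both ways. Single cells carried much of Bcl2a1d: 1 DHX15-flox cell held 15 of the 20 UMIs in Cd79a-positive cells, and 1 DHX15-KO cell 30 of the 75 in Cd79a-negative cells.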

How the results depend on the processing

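No paired analysis was possible because each genotype has 1 library. The DHX15-KO share of class II high cells was above the DHX15-flox share in every setting run (0.799 to 1.68% in DHX15-KO, 0.0907 to 0.465% in DHX15-flox). The DHX15-KO share moved to 0.973% thinned, 0.934% with at least 1000 genes, 0.799% with Trac at 0 and at most 1 T cell UMI (0.0907% in DHX15-flox), and 1.68% at any Rag1 level. Its Cd79a-positive part moved to 63.2% thinned, 63.6% with at least 1000 genes and 25.9% with mt- under 5%. The 435 Cd79a-positive genes past 2-fold became 235 (scaled without mt-, ribosomal protein and antigen receptor genes), 243 (TMM), 286 (mean over cells), 123 (at least 50 UMIs), 1447 (at least 3) and 185 (without the Igkc-rich cell). The 357 Cd79a-negative genes became 539 (mean over cells), 98 (at least 50 UMIs), 1712 (at least 3) and 232 (T cell limit). At that limit 32 DHX15-KO and 4 DHX15-flox cells remained, 17.7% of the genes past 2-fold were higher, and S100a14 reversed to −3.22; Jchain reversed to 0.55 without the Igkc-rich cell. The 10 highest and 10 lowest genes per subset were the single genes rerun here. Of their values, 240 kept direction and stayed within the counting interval of the main value, 24 moved outside it and 2 reversed. That interval is wide for genes with few UMIs, so staying within it does not show that the size was kept. The Dhx15 log2 ratio lay between −0.61 and 0.01. The settings on Rag1, Scrublet scores, mt- under 20%, the Igkc-rich cell and, for genes, T cell UMIs were added after seeing the data. Leaving out called doublets gave no value, since none was class II high; leaving out a replicate was not possible. Depth limits the Cd79a-negative cells most: 30 of 56 DHX15-KO and 12 of 19 DHX15-flox cells reach 2000 UMIs.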
